A study of Mus musculus with 6 samples.

Results

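Translation initiation and elongation factors, the proteins that load ribosomes onto messenger RNA and drive the addition of amino acids, were compared between naive CD4+ T cells of the mesenteric lymph nodes (mLN) and of the spleen. The genes were chosen by symbol: protein-coding mouse genes whose symbols begin with Eif1 to Eif6, Eef1 or Eef2, with the virus-sensing kinase Eif2ak2 left out. This gave 67 genes of the 55487 in the files, after 10 pseudogenes and 1 non-coding RNA with such symbols had been set aside. Of the 67, 63 were counted well enough to be tested. Of the 4 that were not, Eif4e1b and Eef1a2 were at 0 counts in all 6 libraries, which leaves up to 0.227 CPM (counts relative to library size) possible in the shallowest of them, and Eef1akmt3 and Eif4ebp3 were close to 0.

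Initiation begins when eIF2 brings the initiator tRNA to the small ribosomal subunit, where eIF1, eIF1A, eIF3 and eIF5 assemble. The eIF4F complex, made of the cap-binding protein eIF4E, the scaffold eIF4G and the helicase eIF4A, then brings the subunit to the capped messenger RNA. During elongation, eEF1A delivers aminoacyl-tRNAs, the eEF1B subunits recharge it with GTP, and eEF2 moves the ribosome along the message. Resting T cells translate little, and T cell activation is known to raise translation through these factors.

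The libraries came from untreated wild-type (WT) C57BL6/J mice, with 3 libraries of freshly prepared mLN cells and 3 of freshly prepared spleen cells, and RNA sequencing of polyadenylated RNA was the assay. The labels give neither the age of the mice nor the way the naive cells were isolated, nor do they say that replicates are separate animals. The p-values therefore reflect only how much these libraries vary, and that spread may be technical. Expected counts, the estimated number of fragments per gene, summed to between 13205499 and 20054205 per library in mLN and between 14224966 and 17862485 in spleen. The T cell markers summed to between 5486 and 5671 CPM in mLN libraries and between 6189 and 6307 CPM in spleen libraries. Cd4 averaged 891 CPM in mLN and 930 CPM in spleen, and the pair of CD8 T cell markers, mostly Cd8b1, summed to between 12.5 and 20.4 CPM in mLN and between 16.1 and 17.8 CPM in spleen. Markers of other cells differed between the tissues: the 13 monocyte and macrophage markers summed to between 3.30 and 4.66 CPM in mLN and between 37.9 and 41.4 CPM in spleen, and the 8 neutrophil markers to between 0.150 and 1.24 CPM in mLN and between 31.5 and 37.7 CPM in spleen. The 9 B cell markers, most of whose sum was Ighm, summed to between 344 and 374 CPM in mLN and between 504 and 540 CPM in spleen, and 7 of the 9 were lower in mLN. The 7 dendritic cell markers summed to between 0.751 and 1.17 CPM in mLN and between 5.86 and 9.83 CPM in spleen. The NK cell marker sum went the other way through Prf1 alone, at 56.1 to 67.8 CPM in mLN and 42.9 to 48.5 CPM in spleen. Each other NK cell marker averaged less in mLN than in spleen, the largest being Gzma at 0.377 and 0.963 CPM. Spic, Ms4a7 and Fcgr1 were at 0 in all mLN libraries. The part of these cells in the differences below was not tested, and in bulk RNA fewer cells of a type and less RNA per cell cannot be told apart.

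Translation factor messages were abundant in both groups. They made up 3.05 ± 0.0359% of all counts in mLN and 3.57 ± 0.0447% in spleen (SD, n = 3 each), and the groups did not overlap. Of the summed TPM they made up 2.79 ± 0.0688% in mLN and 2.94 ± 0.0683% in spleen, a smaller gap. Elongation factors eEF1 and eEF2 held 1.96 ± 0.0204% of counts in mLN and 2.48 ± 0.0296% in spleen, a difference found in eEF1 and not in Eef2. All genes with an Eif symbol, kinases and repressors included, held 1.09 ± 0.0216% in mLN and 1.09 ± 0.0242% in spleen. Eef1a1, which encodes eEF1A, supplied 43.4 ± 0.852% of the family's counts in mLN and 50.8 ± 1.09% in spleen. The median level of a tested factor gene, per length, was 87.3 TPM (transcript abundance scaled to a common total), against 17.3 TPM over all tested genes.

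By edgeR's quasi-likelihood test with Benjamini-Hochberg adjustment over all 12486 tested genes and a threshold of 0.05, 11 of the 63 factor genes were higher in mLN, 20 were lower and 32 did not pass. Across all tested genes 29.6% passed, 16.1% higher and 13.5% lower in mLN, while 49.2% of the factors passed. The power of the test depends on the level of a gene: among genes of at least 50 CPM, 53.3% passed, against 61.4% of the 44 factors at that level. Called higher were 17.5% of the factors and called lower were 31.7%, against the 16.1% and 13.5% of all genes. The split by direction was not made among all genes of at least 50 CPM. CPM values of the groups did not overlap for 37 of the 63, with 13 higher and 24 lower in mLN, where 41.8% of all genes did not overlap. The changes were small, and the median log2 fold change (mLN minus spleen, on the count scale) was -0.023 for the factors and -0.012 for all genes. Only 2 called factors differed by 1.5-fold or more, Eef2k and Eef1akmt4. The shares of all genes given here are also the background for the counts by complex and by list below.

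**Figure D1:**
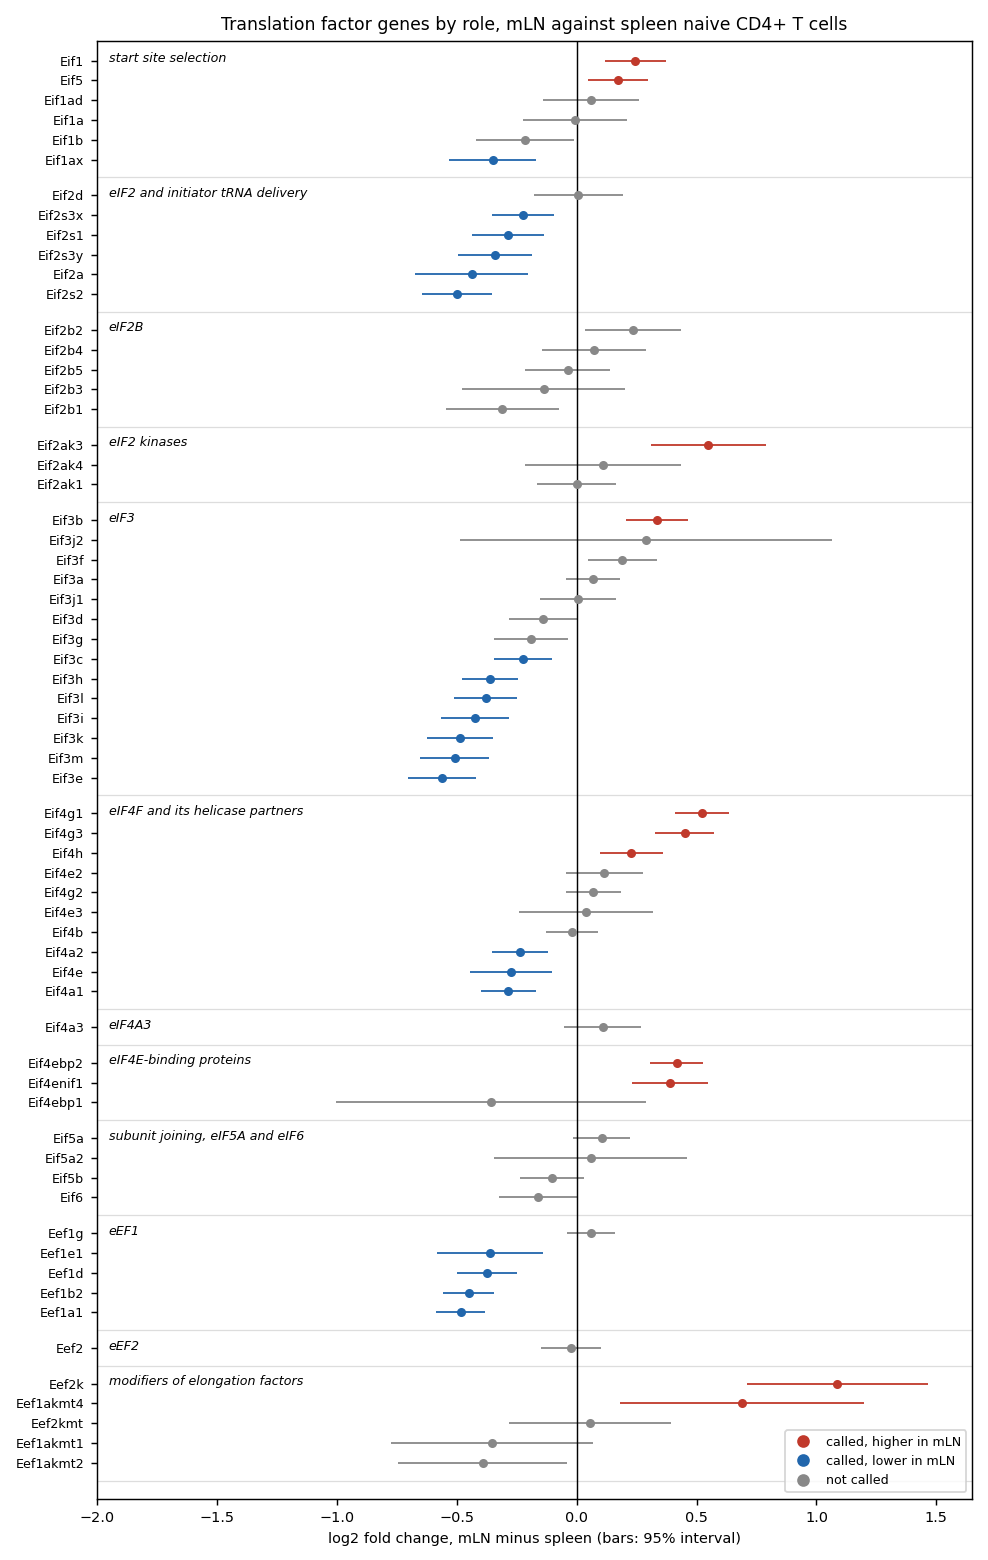
Log2 fold change (mLN minus spleen, x axis) of the 63 tested translation factor genes, grouped by role down the page; points are estimates, bars are 95% intervals, red marks genes called higher in mLN, blue those called lower and grey those not called. The eIF2, eIF3 and eEF1 groups hold most of the 20 lower genes, and the scaffolds Eif4g1 and Eif4g3, Eif4ebp2 and Eef2k are among the 11 higher ones.

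The scale of measurement mattered for these genes. Within the family the log2 fold change rose with effective transcript length, with Spearman's rho of 0.42 over the 63 genes, and rho was 0.37 over all tested genes; genes are not independent replicates and the coefficients are descriptions. The median effective length was 2394 nucleotides for factors called higher in mLN and 1300 nucleotides for those called lower. The median transcript GC content was 52.7% for factors called higher and 44.5% for those called lower. On log2(TPM + 1) the median difference of all genes was 0.21 and that of the factors 0.23, with 22.1% of genes higher in mLN and 3.08% lower; 20 factors were higher and 3 lower, and 34 of the 63 lay above that shift. Those 20 include 9 genes not called on counts, Eif3a, Eif3f, Eif4b, Eif4e2, Eif4g2, Eif4a3, Eif5a, Eef1g and Eef2. With TPM centred on each library's median, 6 factors were higher (6.39% of all genes) and 11 lower (7.58%), none of them uncalled on counts. After removal of a smooth trend with length, 13 were higher (11.5% of all genes) and 19 lower (12.1%), and after removal of a trend with GC content, 12 were higher (18.4%) and 18 lower (13.8%). Uncalled on counts were 3 of the higher genes with the length trend removed (Eif2b2, Eif4a3 and Eif5a) and 1 of the lower (Eif5b), and 2 of the higher genes with the GC trend removed (Eif3a and Eif4g2) and 5 of the lower (Eif1b, Eif3d, Eif3g, Eif6 and Eef2). The parts of length and GC content in the differences were not tested beyond these fits. Called in the same direction on counts, centred TPM, and both trend-removed scales were 6 higher and 11 lower factors. This count was not made over all genes.

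**Figure D2:**
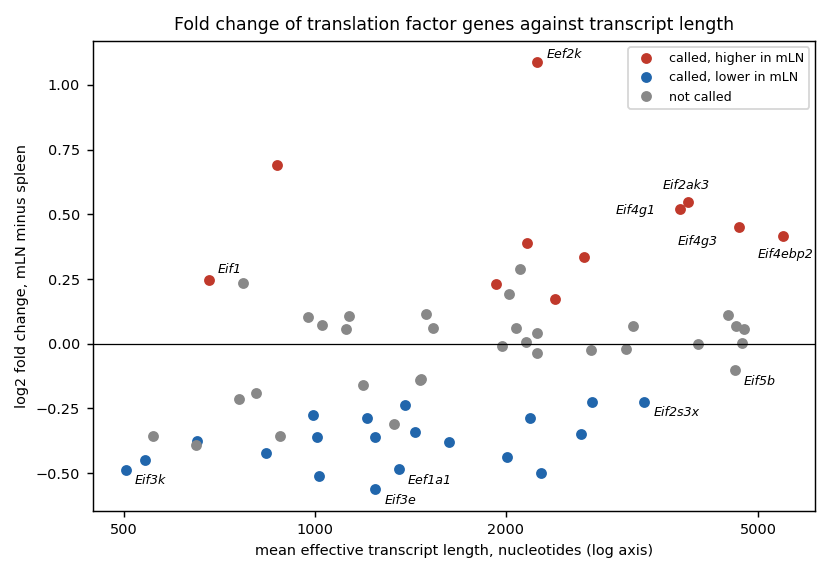
Log2 fold change (mLN minus spleen, y axis) of the 63 tested translation factor genes against mean effective transcript length in nucleotides (log x axis); colours mark genes called higher, called lower and not called. Short transcripts such as Eif3k lie below 0 and long ones such as Eif4g1, Eif4g3 and Eif4ebp2 above it, but Eif1 is short and higher in mLN.

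Messenger RNAs of many elongation factors, some initiation factors and all ribosomal proteins are known as 5′ TOP messages. Such a message starts with a C followed by an unbroken run of pyrimidines, and its translation is under control of the growth kinase mTOR. RefSeq promoter windows (GRCm38.p6, 250 bases before to 50 after an annotated start) were found for 51 of the 67 genes. A run of at least 8 bases that starts with C and goes on with only C or T was sought on the coding strand. It counted if any part of it lay within 10 bases of a start. Such a run was present in 11 of the 51 (21.6%), in 12.5% of 27025 genes with a window and in 29 of 61 ribosomal protein genes (47.5%). Among factors called lower in mLN it was found in 6 of 16 with a window, against 1 of 11 called higher and 4 of 23 not called. Those lower genes were Eef1a1, Eif2s3x, Eif2s3y, Eif3l, Eif3m and Eif4e. For Eif4e only the downstream of its annotated starts had the run. The runs of Eif3m and Eif4e begin at -20 and -12 relative to the annotated start and end before it. The 40 bases around the start (25 before, 15 after) are shown for the first 5 of these lower genes, for Eif3f, which has a long run and was not lower, and for Eef1b2, Eif4g1 and Eif4ebp2, which have no run that long. Capitals mark the pyrimidine run (for Eif4g1 a shorter one).
Eef1a1 (chr9:78481710-78481749, minus strand): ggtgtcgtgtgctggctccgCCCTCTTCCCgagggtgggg
Eif2s3x (chrX:94212637-94212676, minus strand): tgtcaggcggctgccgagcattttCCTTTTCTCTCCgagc
Eif2s3y (chrY:1010570-1010609, plus strand): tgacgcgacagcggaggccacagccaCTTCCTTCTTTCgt
Eif3l (chr15:79075198-79075237, plus strand): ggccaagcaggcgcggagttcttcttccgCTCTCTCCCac
Eif3m (chr2:105017013-105017052, minus strand): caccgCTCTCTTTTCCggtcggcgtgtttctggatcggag
Eif3f (chr7:108934390-108934429, plus strand): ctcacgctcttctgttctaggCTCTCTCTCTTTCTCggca
Eef1b2 (chr1:63176806-63176845, plus strand): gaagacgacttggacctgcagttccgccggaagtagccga
Eif4g1 (chr16:20672702-20672741, plus strand): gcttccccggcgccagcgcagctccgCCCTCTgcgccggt
Eif4ebp2 (chr10:61452655-61452694, minus strand): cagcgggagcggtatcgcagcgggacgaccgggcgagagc
Eef1a1 and Eif2s3x carry a run of 10 and 12 bases that spans the annotated start, and the windows of Eef1b2 and Eif4ebp2 hold no such run. The motif CACGTG, the same on both strands, was present in the windows of 13 of the 51 factor genes (25.5%) and of 8.09% of all genes. These matches are descriptions of the sequence.

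Factors of start site selection moved in both directions: of 6 tested genes, 2 rose in mLN, 1 fell and 3 did not pass. Eif1, whose protein guards the fidelity of start codon choice, had 320, 292 and 290 CPM in mLN libraries, against 261, 264 and 236 CPM in spleen libraries. The 3 mLN libraries all lay above the spleen libraries (log2 fold change 0.25, SE 0.0645, adjusted p = 0.00598). Eif5, whose protein triggers GTP hydrolysis by eIF2, had 478, 475 and 423 CPM in mLN, against 436, 397 and 387 CPM in spleen, with mLN replicate 3 below spleen replicate 1 (log2 fold change 0.17, SE 0.0641, adjusted p = 0.0459). Eif1ax, the X-linked gene of eIF1A, had 72.5, 65.3 and 58.1 CPM in mLN, against 86.8, 84.8 and 78.0 CPM in spleen. Every mLN library was lower on this count scale (log2 fold change -0.35, SE 0.0920, adjusted p = 0.00606), but on log2(TPM + 1) the difference was 0.26 and on centred TPM 0.0096. The transcript length that the authors' estimate gave Eif1ax was 3596, 2067 and 2222 nucleotides in mLN libraries and 3368, 3196 and 2946 nucleotides in spleen libraries. Eif1b, a close paralog of Eif1, did not pass (34.3 ± 0.996 CPM in mLN, 39.8 ± 0.592 CPM in spleen, SD, n = 3 each; log2 fold change -0.21, adjusted p = 0.131). The Eif1 call was lost without mLN replicate 1 (adjusted p = 0.0605) and on centred TPM (0.524). That of Eif5 was lost without mLN replicate 1 (adjusted p = 0.207), mLN replicate 2 (0.174), spleen replicate 2 (0.222) or spleen replicate 3 (0.178), with RLE (0.0512) or upper-quartile factors (0.153), with the stricter filter (0.0679), with the length trend removed (0.154) and on centred TPM (0.14). The Eif1ax call was lost with the GC trend removed (0.0572).

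Most genes around eIF2 were lower in mLN: 5 of the 6 genes for eIF2 and for initiator tRNA delivery fell and none rose, with a median log2 fold change of -0.31. Among all genes of at least 50 CPM, 53.3% passed in either direction. Eif2s2, the gene of eIF2 beta, had 125, 112 and 113 CPM in mLN, against 172, 158 and 165 CPM in spleen. No mLN library reached a spleen library (log2 fold change -0.50, SE 0.0737, adjusted p = 2.63e-05). Eif2s1, the gene of eIF2 alpha, which carries the regulatory phosphorylation site, had 106, 113 and 101 CPM in mLN, against 136, 133 and 122 CPM in spleen (log2 fold change -0.29, SE 0.0766, adjusted p = 0.00658). The gamma subunit is encoded on both sex chromosomes in mice. Its Y-linked gene Eif2s3y had 103, 101 and 93.3 CPM in mLN, against 128, 132 and 116 CPM in spleen, and was thus counted in all 6 libraries (log2 fold change -0.34, SE 0.0787, adjusted p = 0.00216). Its X-linked gene Eif2s3x had 219, 217 and 197 CPM in mLN, against 261, 236 and 242 CPM in spleen (log2 fold change -0.22, SE 0.0663, adjusted p = 0.0136). Both copies were lower without overlap, and both windows shown above hold a pyrimidine run. Eif2a encodes eIF2A, a single protein apart from the eIF2 complex that can bind initiator tRNA. It had 42.4, 53.5 and 39.5 CPM in mLN, against 65.8, 51.5 and 65.9 CPM in spleen, so that mLN replicate 2 lay above spleen replicate 2 (log2 fold change -0.44, SE 0.119, adjusted p = 0.0084). Eif2d, another single-protein factor, averaged 56.6 ± 1.42 CPM in mLN and 56.2 ± 5.88 CPM in spleen (SD, n = 3 each) and did not pass (adjusted p = 0.965). None of the 6 passed on log2(TPM + 1), 1 of 6 on centred TPM, where the median was -0.27, and 2 of 6 with the GC trend removed. Without spleen replicate 1 the Eif2s3x call was lost (adjusted p = 0.0787), and 34.6% of the 50-base stretches of its transcripts also occur in other genes.

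No gene of eIF2B, the exchange factor that reloads eIF2 with GTP, passed the test, and the 5 log2 fold changes ran from -0.31 to 0.23. Eif2b2, the most abundant of them per length, had 44.0 ± 1.89 CPM in mLN and 37.3 ± 1.40 CPM in spleen (SD, n = 3 each; adjusted p = 0.0898), and it passed as higher with the length trend removed (log2 fold change 0.41, adjusted p = 0.00598). Eif2b1 had 24.8 ± 1.31 CPM in mLN and 30.8 ± 1.93 CPM in spleen (log2 fold change -0.31, adjusted p = 0.0563), and it passed as lower with upper-quartile factors (adjusted p = 0.0283) and with the stricter filter (0.0414). Of the 3 kinases that phosphorylate eIF2 alpha under stress, 1 rose in mLN and the others did not pass; the difference between kinases was not tested. Eif2ak3, which encodes PERK, the sensor of stress in the endoplasmic reticulum, had 38.4, 45.3 and 50.1 CPM in mLN, against 27.9, 29.0 and 34.6 CPM in spleen. All mLN libraries were above all spleen libraries, by 1.46-fold (log2 fold change 0.55, SE 0.122, adjusted p = 0.00155). Eif2ak1, the heme-regulated kinase, averaged 63.2 ± 2.69 CPM in mLN and 63.3 ± 1.62 CPM in spleen (adjusted p = 0.998; 95% interval of the log2 fold change -0.16 to 0.17). Eif2ak4, the gene of the amino acid sensing kinase, averaged 22.0 ± 1.04 CPM in mLN and 20.3 ± 5.69 CPM in spleen (log2 fold change 0.11, 95% interval -0.21 to 0.43, adjusted p = 0.673). On centred TPM the Eif2ak3 call was lost (log2 difference 0.51, adjusted p = 0.0775).

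Of 14 tested subunit genes of eIF3, the large scaffold of the initiating ribosome, 7 were lower in mLN, 1 was higher and 6 did not pass, with a median log2 fold change of -0.21 on counts and of 0.062 on log2(TPM + 1), below the shift of all genes on that scale. Every eIF3 gene but Eif3j2 was at 50 CPM or more, a level at which 53.3% of all genes passed in either direction. Among the 8 subunits of the structural PCI/MPN core (a, c, e, f, h, k, l and m), a grouping made after the values were seen, 6 were lower and none was higher. Eif3e had 312, 288 and 264 CPM in mLN, against 456, 437 and 383 CPM in spleen. This was the largest decrease of any tested factor gene (log2 fold change -0.56, SE 0.0716, adjusted p = 5.14e-06) and the groups were well apart. Eif3m had 169, 158 and 149 CPM in mLN, against 236, 236 and 205 CPM in spleen (log2 fold change -0.51, SE 0.0730, adjusted p = 1.88e-05). Eif3k, a subunit that some eukaryotes lack, had 107, 113 and 116 CPM in mLN, against 158, 159 and 152 CPM in spleen (log2 fold change -0.49, SE 0.0708, adjusted p = 2.23e-05). Eif3h, the eIF3 gene of highest level per length with 440 ± 16.9 TPM in mLN and 470 ± 22.6 TPM in spleen (SD, n = 3 each), had 323, 306 and 301 CPM in mLN, against 386, 387 and 420 CPM in spleen. In each of these genes every mLN library was below every spleen library. Eif3l fell alike, to 134, 127 and 129 CPM in mLN, against 169, 169 and 168 CPM in spleen (log2 fold change -0.38, adjusted p = 1.96e-04). Eif3c was the least changed of the lower genes, with 294, 281 and 322 CPM in mLN, against 355, 345 and 349 CPM in spleen (log2 fold change -0.22, adjusted p = 0.00798).

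Outside that core, Eif3b and Eif3i, whose proteins bind each other at the mRNA entry side of the ribosome, moved in opposite directions. Eif3i had 104, 103 and 99.2 CPM in mLN, against 135, 139 and 136 CPM in spleen (log2 fold change -0.42, SE 0.0722, adjusted p = 1.3e-04). Eif3b had 226, 231 and 258 CPM in mLN, against 191, 186 and 190 CPM in spleen (log2 fold change 0.34, SE 0.0663, adjusted p = 5.59e-04). The groups did not overlap in either gene. Eif3a, the largest subunit, averaged 701 ± 29.9 CPM in mLN and 668 ± 31.0 CPM in spleen (SD, n = 3 each; log2 fold change 0.069, adjusted p = 0.402), with the length trend removed its value was -0.13, and with the GC trend removed it passed as higher (0.20, adjusted p = 4.82e-05). Eif3f averaged 241 ± 18.9 CPM in mLN and 211 ± 19.5 CPM in spleen and missed the threshold (log2 fold change 0.19, adjusted p = 0.0573). It passed as higher without spleen replicate 3 (0.25, adjusted p = 0.0128) and on log2(TPM + 1) (0.43, adjusted p = 0.00706), but not on centred TPM (0.19, adjusted p = 0.164). Eif3g averaged 100.2 ± 6.13 CPM in mLN and 114 ± 6.16 CPM in spleen and did not pass (log2 fold change -0.19, adjusted p = 0.0776). It passed as lower without mLN replicate 3 (adjusted p = 0.0277), with upper-quartile factors (0.0275), with the stricter filter (0.0406) and with the GC trend removed (-0.36, adjusted p = 2.99e-05). On log2(TPM + 1) 3 eIF3 genes passed as higher and 1 as lower, and on centred TPM, where the median was -0.18, 1 gene was higher and 6 were lower; with the GC trend removed 2 were higher and 9 lower. The Eif3c call was lost without mLN replicate 2 (adjusted p = 0.0575), on log2(TPM + 1) (0.033, adjusted p = 0.777) and on centred TPM (-0.21, adjusted p = 0.0905). Eif3j2 shares 91.8% of its 50-base stretches with other genes, nearly all with Eif3j1, so that the split of reads between the pair is uncertain.

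**Figure D3:**
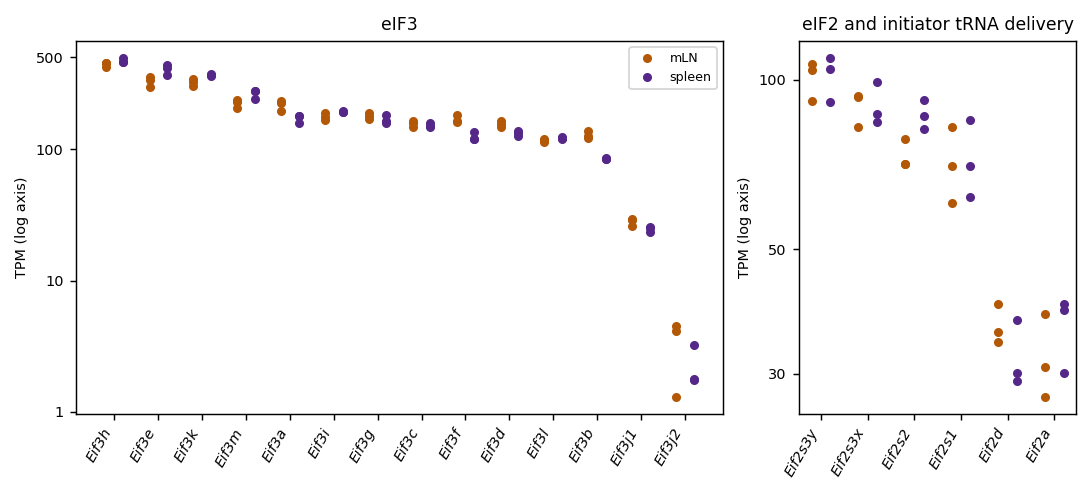
TPM per library (log y axis) of the 14 tested eIF3 genes and of the 6 genes for eIF2 and initiator tRNA delivery, each ordered by mean level; orange points are the 3 mLN libraries and purple points the 3 spleen libraries. Eif3h, Eif3e and Eif3k are the highest eIF3 genes per length, Eif3j2 is far below the rest, and Eif3b stands higher in every mLN library.

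Genes of eIF4F moved in both directions, with a pair of scaffold genes higher in mLN and, on counts, both eIF4A genes and Eif4e lower. Of 10 tested genes of eIF4F and its helicase partners, 3 rose, 3 fell and 4 did not pass on counts, while on log2(TPM + 1) 6 were higher and none lower, on centred TPM 3 were higher and 1 lower, and with the GC trend removed 4 were higher and 1 lower. All of them but Eif4e3 were at 50 CPM or more, where 53.3% of all genes passed on counts in either direction. Eif4g1, the main scaffold that joins eIF4E, eIF4A and eIF3 (chr16:20668313-20692884, plus strand, GRCm38), had 551, 554 and 577 CPM in mLN, against 380, 380 and 411 CPM in spleen. The lowest mLN library was above the highest spleen library, and the mean difference was 1.44-fold (log2 fold change 0.52, SE 0.0571, adjusted p = 7.26e-07). Eif4g3, its paralog, had 240, 241 and 246 CPM in mLN, against 175, 174 and 184 CPM in spleen (log2 fold change 0.45, SE 0.0624, adjusted p = 1.26e-05). Eif4g2 encodes DAP5, a related scaffold that does not bind eIF4E. It had 1315, 1349 and 1204 CPM in mLN, against 1278, 1257 and 1152 CPM in spleen, with overlap (log2 fold change 0.069, 95% interval -0.045 to 0.18, adjusted p = 0.415), and it passed as higher on log2(TPM + 1) (0.38, adjusted p = 0.00828) and with the GC trend removed (0.20, adjusted p = 8.92e-06). Eif4g2 did not pass on centred TPM (0.13, adjusted p = 0.28).

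Both genes of the eIF4A helicase were lower in mLN on the count scale, although on log2(TPM + 1) Eif4a2 stood at 0.045 and Eif4a1, at -0.13, did not pass (adjusted p = 0.143). Eif4a1 had 562, 542 and 526 CPM in mLN, against 693, 675 and 619 CPM in spleen (log2 fold change -0.29, SE 0.0584, adjusted p = 7.66e-04). Eif4a2, the most abundant initiation factor gene per length with 1058 ± 111 TPM in mLN and 1022 ± 45.6 TPM in spleen (SD, n = 3 each), had 1038, 1074 and 940 CPM in mLN, against 1255, 1208 and 1130 CPM in spleen (log2 fold change -0.24, SE 0.0597, adjusted p = 0.00451). Eif4a2 did not pass on centred TPM (adjusted p = 0.123) or with the GC trend removed (0.0909). Eif4e, the cap-binding subunit, had 80.0, 69.7 and 74.2 CPM in mLN, against 96.0, 92.0 and 83.0 CPM in spleen, without overlap (log2 fold change -0.27, SE 0.0874, adjusted p = 0.021). That call was lost without mLN replicate 2 (adjusted p = 0.0874), spleen replicate 1 (0.0996) or spleen replicate 2 (0.0622), and with the length trend (0.286) or GC trend (0.194) removed. On log2(TPM + 1) Eif4e stood at 0.059 and did not pass (adjusted p = 0.701), nor did it on centred TPM (-0.19, adjusted p = 0.234). Eif4h, a cofactor of the helicase, had 198, 203 and 204 CPM in mLN, against 165, 168 and 183 CPM in spleen (log2 fold change 0.23, adjusted p = 0.0116). Leaving out spleen replicate 1 or 2 ended that call (adjusted p = 0.0721 and 0.085). Eif4b, the other cofactor, averaged 619 ± 23.4 CPM in mLN and 628 ± 13.2 CPM in spleen and did not pass (adjusted p = 0.83). Of the 50-base stretches of Eif4a1, 28.4% also occur in other genes, mostly in the pseudogene Eif4a-ps4, which had 200 to 270 counts in mLN libraries and 246 to 261 in spleen libraries. Eif4a3, a helicase of the exon junction complex rather than of eIF4F, averaged 108 ± 9.73 CPM in mLN and 101 ± 3.20 CPM in spleen and did not pass (adjusted p = 0.351).

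Genes of the proteins that bind eIF4E and keep it from eIF4G rose in 2 of 3 tested cases. Eif4ebp2 encodes a repressor that mTOR phosphorylation releases from eIF4E. It had 465, 488 and 476 CPM in mLN, against 340, 362 and 368 CPM in spleen (log2 fold change 0.42, SE 0.0573, adjusted p = 1.16e-05). Eif4enif1, which encodes the eIF4E transporter 4E-T, had 103, 100 and 95.2 CPM in mLN, against 75.7, 76.9 and 75.3 CPM in spleen (log2 fold change 0.39, SE 0.0799, adjusted p = 7.82e-04). In both genes the mLN libraries all exceeded the spleen libraries, and both calls held in each of the 17 alternatives tried. Eif4ebp1 was far lower than Eif4ebp2 in both tissues, at 6.89 ± 1.80 TPM in mLN and 5.18 ± 0.853 TPM in spleen against 125 ± 7.16 TPM in mLN and 77.1 ± 3.03 TPM in spleen for Eif4ebp2, and it did not pass (adjusted p = 0.465).

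**Figure D4:**
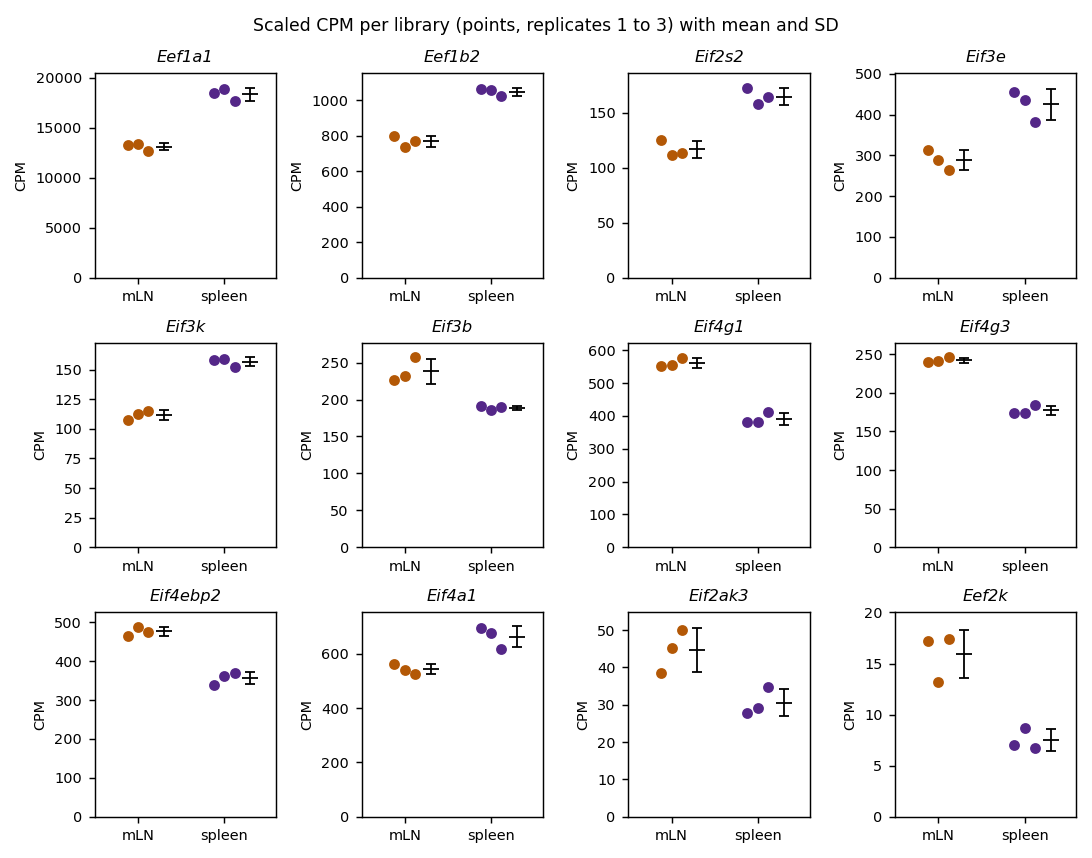
Scaled CPM (count scale) of 12 translation factor genes in each library (points, replicates 1 to 3 from left to right; bars, mean and SD; axes from 0), with mLN left of spleen. In each panel the mLN points lie wholly above or wholly below the spleen points, below for Eef1a1, Eef1b2, Eif2s2, Eif3e, Eif3k and Eif4a1 and above for the other 6.

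Ratios of related factors within a library do not depend on the scaling of that library, though they do on the estimated transcript lengths. Of 14 TPM ratios compared, 7 did not overlap between the groups; with 3 libraries against 3 the two-sided exact permutation p cannot go below 0.1, and adjusted over the 14 it was 0.2 for each of the 7. The ratio of Eif4ebp2 to Eif4e was 1.09, 1.26 and 1.07 in mLN libraries, against 0.715, 0.651 and 0.829 in spleen libraries. By TPM, Eif4ebp2 messages thus outnumbered Eif4e messages in each mLN library and were fewer in each spleen library. This holds for Eif4ebp2 alone. All genes of eIF4E-binding proteins together had 123, 124 and 127 TPM in spleen libraries, where Eif4e had 103, 120 and 95.9 TPM. Eif4g1 stood to Eif4g2 at 0.347 ± 0.0467 in mLN and 0.285 ± 0.0196 in spleen, without overlap (SD, n = 3 each). The ratio of Eif4g3 to Eif4g2 differed by 0.33 on the log2 scale, mLN minus spleen, and was higher in each mLN library than in any spleen library. Eif4a1 was below Eif4a2 in all libraries, at a ratio of 0.587 ± 0.0490 in mLN and 0.663 ± 0.0366 in spleen. The ratio of Eif2s3y to Eif2s3x overlapped, at 1.12 ± 0.0213 in mLN and 1.14 ± 0.144 in spleen, as did that of Eef1b2 to Eef1a1, at 0.149 ± 0.00691 in mLN and 0.142 ± 0.00470 in spleen.

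**Figure D5:**
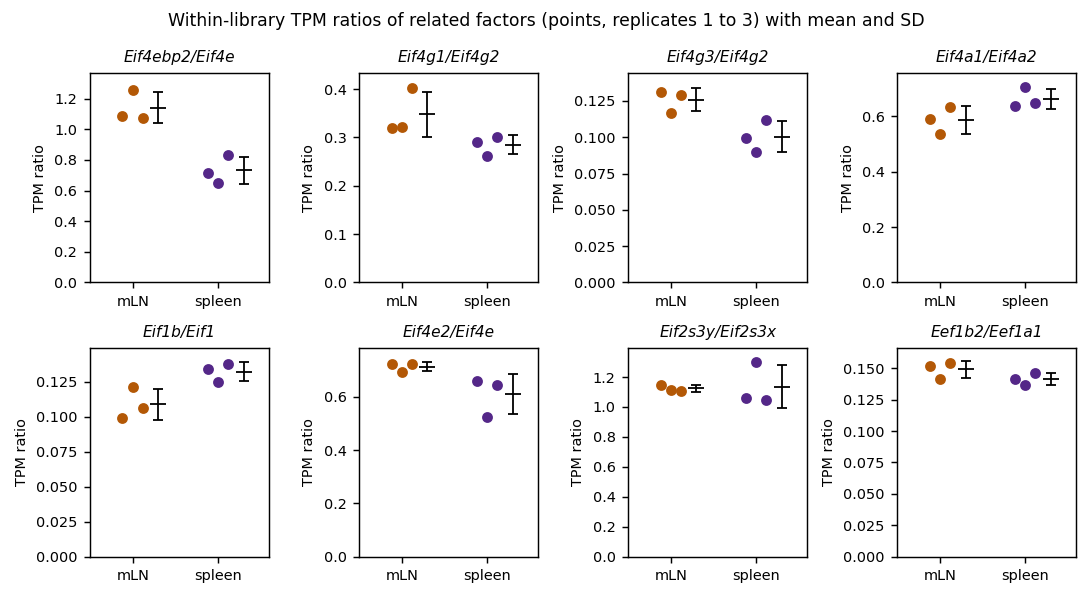
Within-library TPM ratios of 8 of the 14 pairs of related factors (points, replicates 1 to 3; bars, mean and SD; axes from 0), with mLN left of spleen. Eif4ebp2/Eif4e lies above 1 in the 3 mLN libraries and below 1 in the 3 spleen libraries, while Eif2s3y/Eif2s3x and Eef1b2/Eef1a1 overlap.

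The genes for eIF5A, eIF5B and eIF6 gave no call on counts in 4 tested. Eif5a encodes the hypusine-bearing factor that helps at stalled ribosomes. It averaged 292 ± 9.16 CPM in mLN and 272 ± 10.4 CPM in spleen (SD, n = 3 each; adjusted p = 0.211). Its level per length was higher in mLN, at 433 ± 11.2 TPM against 329 ± 13.4 TPM in spleen, but on centred TPM it did not pass (log2 difference 0.15, adjusted p = 0.108). It passed as higher with the length trend removed (log2 fold change 0.25, adjusted p = 0.00325). Eif5b, the GTPase of subunit joining, averaged 221 ± 17.1 CPM in mLN and 238 ± 9.73 CPM in spleen (adjusted p = 0.28), and it passed as lower with the length trend removed (-0.30, adjusted p = 0.00247). Eif6, which holds the large ribosomal subunit apart, averaged 75.2 ± 1.77 CPM in mLN and 84.1 ± 4.46 CPM in spleen (adjusted p = 0.152), and it passed as lower with the GC trend removed (-0.28, adjusted p = 0.0027).

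Elongation factor eEF1 was the family's most abundant group and was lower in mLN in 4 of 5 tested genes, with a median log2 fold change of -0.37 on counts and -0.17 on log2(TPM + 1). Eef1a1 (chr9:78478449-78489151, minus strand, GRCm38) had 13257, 13424 and 12693 CPM in mLN, against 18478, 18926 and 17661 CPM in spleen. Every mLN library was far below every spleen library (log2 fold change -0.48, SE 0.0528, adjusted p = 6.95e-07). Per length it had 13736 ± 591 TPM in mLN and 16236 ± 684 TPM in spleen, and these did not overlap. Eef1b2, an exchange factor for eEF1A, had 801, 735 and 770 CPM in mLN, against 1066, 1058 and 1025 CPM in spleen (log2 fold change -0.45, SE 0.0543, adjusted p = 2.46e-06). Eef1d, the other exchange subunit, had 187, 189 and 203 CPM in mLN, against 252, 238 and 261 CPM in spleen (log2 fold change -0.37, SE 0.0645, adjusted p = 1.43e-04). Both were lower in mLN without overlap. The anchoring subunit gene Eef1g did not follow them: it had 912, 912 and 920 CPM in mLN, against 868, 873 and 890 CPM in spleen (log2 fold change 0.061, 95% interval -0.040 to 0.16, adjusted p = 0.418). Eef1e1, whose protein is known as a part of the multi-tRNA synthetase complex, had 26.1, 26.0 and 26.8 CPM in mLN, against 33.9, 32.5 and 35.1 CPM in spleen (log2 fold change -0.36, SE 0.113, adjusted p = 0.0189). Its call was lost without mLN replicate 1 (adjusted p = 0.0558) or mLN replicate 2 (0.0526), on centred TPM (0.079) and with the length (0.079) or GC trend (0.0713) removed. On log2(TPM + 1) 2 of the 5 genes passed as lower and Eef1g as higher (0.34, adjusted p = 0.00202), and 3 were lower on centred TPM, where Eef1g did not pass (adjusted p = 0.196). Of the 50-base stretches of Eef1a1 and Eef1g, 39.4% and 44.2% also occur in other genes, mostly unnamed gene models, so their counts depend on how shared reads were assigned.

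On counts the gene of eEF2 did not differ by more than the spread between libraries, while the gene of its inhibitory kinase did. Eef2 had 4100, 4336 and 4697 CPM in mLN, against 4136, 4318 and 4885 CPM in spleen (log2 fold change -0.023, 95% interval -0.15 to 0.10, adjusted p = 0.833), but it passed as higher on log2(TPM + 1) (0.25, adjusted p = 0.0356) and as lower with the GC trend removed (-0.20, adjusted p = 5.33e-06). It did not pass on centred TPM (0.0020, adjusted p = 0.989). Eef2k (chr7:120842831-120907450, plus strand, GRCm38) encodes the kinase that phosphorylates eEF2 and slows elongation. It had 17.2, 13.2 and 17.4 CPM in mLN, against 7.07, 8.69 and 6.73 CPM in spleen. This was the largest difference of any tested factor gene, 2.13-fold, with no overlap (log2 fold change 1.09, SE 0.193, adjusted p = 1.87e-04), although at a low level; on centred TPM it was 0.98 and missed the threshold (adjusted p = 0.0674). Of the other modifiers of elongation factors, Eef1akmt4, a methyltransferase for eEF1A, had 6.94, 7.13 and 7.34 CPM in mLN, against 4.03, 3.69 and 5.55 CPM in spleen (log2 fold change 0.69, SE 0.259, adjusted p = 0.049). Its call was lost without any one of mLN replicates 1 to 3 or of spleen replicates 1 and 2 (adjusted p = 0.0952, 0.0985, 0.122, 0.138 and 0.175), with upper-quartile factors (0.0658), unfiltered (0.0757), with the stricter filter (0.0549), on centred TPM (0.0533) and with the GC trend removed (0.0514). The gene overlaps Gm49333 on the same strand, with 27.9% of its 50-base stretches in common. Eef1akmt1, the most abundant modifier gene per length, averaged 11.4 ± 4.11 CPM in mLN and 14.8 ± 1.79 CPM in spleen (SD, n = 3 each; adjusted p = 0.238), and it passed as lower without mLN replicate 3 (log2 fold change -0.68, adjusted p = 0.0201).

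Exons of 18 of the 67 genes overlap exons of a gene on the opposite strand. Called genes among them are Eef1b2 (with Ndufs1), Eif2a (with Serp1), Eif3m (with Ccdc73), Eif4a2 (with Rfc4), Eif2ak3 (with Gm43292), Eef2k (with Gm15774) and Eef1akmt4 (with Alg3). The library kit keeps strand, but whether the counting used it is not given in the sources used here, so reads of such pairs may not be told apart.

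Other genes of translation were taken from 71 symbols in lists by function. Leaving out the factors themselves, 61 were tested, of which 12 were higher in mLN, 10 were lower and 39 did not pass, shares near the 16.1% and 13.5% of all genes, with a median log2 fold change of 0.039. On counts the 83 tested cytosolic ribosomal protein genes went one way, with none higher, 78 lower and a median of -0.53. They held 8.27 ± 0.409% of counts in mLN and 11.5 ± 0.0990% in spleen. On log2(TPM + 1) 1 was higher and 64 lower, with a median of -0.23. On centred TPM none was higher and 77 were lower (-0.48), and with the length trend removed 1 was higher and 61 lower (-0.25). Of 14 known 5′ TOP messages other than ribosomal proteins, 1 was higher and 8 lower on counts, with a median of -0.31, and 6 were higher and 5 lower on log2(TPM + 1), with a median of -0.040. On centred TPM 1 was higher and 8 were lower (-0.29). With the length trend removed 1 was higher and 8 lower (-0.19), and with the GC trend removed 2 were higher and 9 lower (-0.29). The list includes 9 of the factors described above. Among the others, Tpt1 averaged 4494 ± 166 CPM in mLN and 6175 ± 123 CPM in spleen (log2 fold change -0.46, adjusted p = 1.08e-06), and Rack1, a ribosome-bound scaffold, 1779 ± 56.9 CPM in mLN and 2381 ± 49.7 CPM in spleen (log2 fold change -0.42, adjusted p = 3.24e-06).

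Genes of the poly(A) tail complex moved in both directions, with 3 of 8 higher and 1 lower, where 16.1% and 13.5% of all genes were. Larp1, whose protein binds and represses 5′ TOP messages, averaged 311 ± 17.9 CPM in mLN and 209 ± 19.9 CPM in spleen (log2 fold change 0.57, SE 0.0709, adjusted p = 3.31e-06). Pabpc1, the poly(A)-binding protein and the 1 TOP message that rose, had a log2 fold change of 0.30 (adjusted p = 1.83e-04). Paip2, an inhibitor of that protein, averaged 112 ± 3.05 CPM in mLN and 186 ± 21.1 CPM in spleen (log2 fold change -0.73, SE 0.0792, adjusted p = 6.52e-07). Of 7 genes around eIF2 alpha phosphorylation and its stress response, 3 were higher and 1 lower. Those higher were Gcn1l1, an activator of the amino acid sensing kinase (log2 fold change 0.65, adjusted p = 7.94e-06), and both regulatory subunits of the phosphatase that reverses the mark, Ppp1r15b (0.51, adjusted p = 9.38e-06) and Ppp1r15a (0.52, adjusted p = 4.66e-04). The lower gene was Ddit3, a transcription factor of the stress response, named here after its value was seen (log2 fold change -0.44, adjusted p = 0.0185). It did not pass without mLN replicate 1 (0.0656) or 2 (0.081), without spleen replicate 1 (0.0673) or 3 (0.0661), on centred TPM (0.0752) or with the length trend removed (0.241).

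Among 8 initiation helicases and repressors, 3 were higher and none lower, with Abcf1, an eIF2-binding ATPase (log2 fold change 0.36, adjusted p = 4.57e-04), and Gigyf1, a partner of the repressor 4EHP (0.46, adjusted p = 7.37e-04), giving the smallest p-values. Of 4 kinases acting on eIF4 only Mknk2, which phosphorylates eIF4E, passed (log2 fold change 0.59, adjusted p = 0.0147), but not without mLN replicate 3 (0.105). Of 8 termination and recycling genes, Gspt1, the GTPase of termination, was higher (0.26, adjusted p = 0.00941; 0.0608 without spleen replicate 1). Of 9 genes that modify eIF5A or eEF2, 2 of the diphthamide pathway were lower, Dph7 (-0.52, adjusted p = 0.00616) and Dnajc24 (-0.61, adjusted p = 0.0132), and Dnajc24 did not pass without spleen replicate 3 (0.0538). Of 9 mitochondrial translation factors only Mtif3, an initiation factor, passed as lower (-0.35, adjusted p = 0.0357), and it did not pass without mLN replicate 2 (0.0594) or 3 (0.0617), without spleen replicate 2 (0.107) or 3 (0.0757), or without mLN replicate 1. Of 4 nascent chain and selenocysteine factors, the nascent chain complex genes Naca (-0.53, adjusted p = 6.52e-07) and Btf3 (-0.54, adjusted p = 6.33e-07) were lower and Eefsec, the selenocysteine elongation factor, was higher (0.42, adjusted p = 0.00409). On centred TPM Gspt1 (adjusted p = 0.126) and Eefsec (0.093) did not pass, and with the length trend removed neither did Mknk2 (0.0627), Dnajc24 (0.081) or Mtif3 (0.0831).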

How the data were processed

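Per the file headers, each of the 6 files holds the expected counts that the authors estimated per gene with RSEM, their TPM and FPKM values, and transcript lengths in nucleotides. Per the submitters' processing notes, STAR, RSEM and mm10 were used; the sources used here give no versions, annotation release or strand setting. Of 55487 gene identifiers, 55141 were matched to a symbol; coordinates, biotypes and GC content came from GENCODE annotation of GRCm38. The deposited FPKM values were looked at only for their sums.

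Expected counts were rounded, filtered by edgeR's filterByExpr (12486 genes kept) and scaled by TMM. Tissue was the only term of edgeR's robust quasi-likelihood fit, tested two-sided by F and Benjamini-Hochberg adjusted over all genes. Fold changes are mLN minus spleen; their standard error (SE) was derived from F as the fold change divided by its square root, and 95% intervals assume a normal spread of that SE. TPM was tested with limma on log2(TPM + 1). A floor of 3 counts is 0.150 to 0.227 CPM and covers counting error only. Trends with length or GC were removed by loess (span 0.3); the GC fit was chosen after seeing the data. Replicates differed by more than sampling noise (chi-square per degree of freedom 5.60 to 12.1). The test was tried on simulated data. The packages edgeR 4.0.16, DESeq2 1.42.0 and limma 3.58.1 ran in R 4.3.3, and pandas 2.3.3, numpy 2.4.6 and matplotlib 3.10.9 in Python 3.11.15.

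Genes named are, per role, up to 4 called genes of largest change with a mean of at least 5 CPM, the gene of highest TPM, paralogs and subunits set against each other, and up to 2 called genes per functional list; others were named after their values were seen. Members, lists and tests were chosen with earlier results of these data known.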

Additional observations from a re-analysis of the deposited data

How the results depend on the processing

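Of 1207 single-gene values under 17 alternatives, 1007 kept their direction and side of the threshold. Of the others, 103 lost the call, 38 gained a call and 59 changed sign. Among called factors, 7 higher and 12 lower kept their call in all 14 alternatives on counts. In all fits without 1 library, 23 of the 31 kept it. Such counts of kept calls were not made over all genes. On log2(TPM + 1), log2(TPM + 1) centred on the median and log2(TPM + 0.1), factors higher in mLN numbered 20, 6 and 21, and factors lower 3, 11 and 4. All genes lower numbered 384, 947 and 389 under these, and all genes higher 798 when centred. Other translation genes higher numbered 25 on either uncentred TPM scale and 20 with the GC trend removed, and lower 5 on either uncentred TPM scale. The factors' median was -0.069 with upper-quartile factors, 0.23 on either uncentred TPM scale, -0.091 with the length and -0.059 with the GC trend removed. Without 1 library, factors higher ran from 8 to 11 and lower from 17 to 22, all genes higher from 1500 to 1970 and lower from 1324 to 1710, and the factors' median from -0.062 to -0.023. The cause of these shifts was not tested.

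Signs changed on log2(TPM + 1), centred and with 0.1 in that order for Eif1ax (0.26, 0.0096, 0.26), Eef2 (0.25, 0.0020, 0.25), Eif4ebp1 (0.33, 0.088, 0.38) and Eif4b (0.26, 0.0092, 0.26), and on the uncentred TPM scales (with 1 and with 0.1) for Eif3c (0.033, 0.034), Eif4a2 (0.045, 0.045), Eif4e (0.059, 0.059), Eif1b (0.045, 0.046), Eif5b (0.086, 0.087), Eif6 (0.11, 0.11), Eif3g (0.090, 0.091), Eif3d (0.23, 0.23) and Eif2b1 (0.21, 0.22). With the length trend removed Eif4g2 was at -0.013, Eif3a at -0.13 and Eif2ak4 at -0.075, and with the GC trend removed Eif5b was at 0.030. Without 1 library Eef2 ran from -0.085 to 0.039, Eif4b from -0.057 to 0.0026, Eif2ak1 from -0.028 to 0.031, Eif2d from -0.054 to 0.086 and Eif2ak4 from -0.043 to 0.35. Eif2d, near 0, was at -0.039 with upper-quartile factors, -0.063 on centred TPM, -0.011 with the stricter filter, -0.027 with the length and -0.020 with the GC trend removed. Eif2ak1, near 0, was at -0.0031 with RLE factors, -0.046 with upper-quartile factors, -0.0027 in DESeq2, -0.0026 unfiltered, -0.018 with the stricter filter, -0.15 with the length and -0.0020 with the GC trend removed.

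Deviations of mLN and spleen libraries of the same replicate number correlated at 0.022, 0.0023 and 0.065, and mLN replicates 1 and 2 each correlated best with another number. With 3 libraries per group these values cannot tell whether the numbers pair the libraries. With the number as a block, 13 factors were higher and 23 lower (all genes 2566 and 2140), and Eif2ak1 was at -0.00095. Depth limits mainly Eef1akmt4, Eif4ebp1 and Eif3j2, all under 10 CPM.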
